A study of Mus musculus with 8 samples.

Results

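The histone mark H3K4me3, trimethylation of lysine 4 on histone H3, is laid down by several enzyme complexes, and those built around MLL1 or MLL2 contain menin, the protein encoded by the tumor suppressor gene Men1. The mark sits at the starts of active and poised genes, and complexes without menin place it too. When embryonic stem cells differentiate, promoters of stem cell genes lose the mark and promoters of genes of the new cell type gain or keep it. The question was at which promoters the effect of menin loss on H3K4me3 depended on the stage of differentiation.

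The 4 H3K4me3 libraries came from mouse embryonic stem cells (mESCs), the wild-type (wt) line TC-1 and the Men1-KO (menin-null) line 3.2N, and from pancreatic islet-like endocrine cells (PILECs) grown in vitro from each line. Both lines have the 129S6/SvEvTac background, were kept on feeder cells and then freed of them, and each genotype is 1 line, so that line and genotype cannot be told apart. No sort of the differentiated cells is named in the sources used here. Each condition gave 1 H3K4me3 library and 1 input library of chromatin without antibody, 8 libraries in all and no replicates.

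For each gene, tags within 1 kb of the transcription start were counted and scaled to 1000000 tags of the library (RPM), and the log2 ratio of menin-null to wt was taken in each stage. The ratio in PILECs minus the ratio in mESCs is called the stage difference here. It is given relative to the median of all promoters tested, so that a value below 0 marks a promoter with a lower menin-null to wt ratio in PILECs than in mESCs, once the shift of all promoters is taken off. Of 26212 annotated genes, 26136 lay outside the Dlk1-Meg3, Mest and Hox loci. Of these, 15079 genes with 12997 distinct promoters had at least 20 tags in both mESC libraries together and in both PILEC libraries together. The lowest level that entered was 3.36 RPM in mESCs and 0.549 RPM in PILECs, both genotypes together. Promoters with PILEC counts near those of input were thus tested too. Counts of promoters below count 1 promoter for each gene, so that a promoter shared by several genes counts for each of them. The other 11057 genes were not tested, 5104 of them for too few tags in mESCs alone and 5873 for too few in both stages.

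A promoter was called where the relative stage difference was at least 1 on the log2 scale (2-fold) and the adjusted p from an exact conditional test of the 4 counts was at most 0.05 after Benjamini-Hochberg adjustment over all promoters tested. The test and all intervals cover counting error only, and take tags at repeated positions as independent counts. They compare these 4 libraries, not the conditions, since there is no measure of the spread between cultures. In bulk chromatin, fewer cells with the mark and less mark per cell cannot be told apart.

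The H3K4me3 totals were 2432377 tags (wt) and 3517028 tags (menin-null) for mESCs and 18773635 tags (wt) and 17682677 tags (menin-null) for PILECs, so the mESC counts set the precision. The share of tags within 1 kb of a start was 43.5%, 51.4%, 42.7% and 40.1% in the same order. Tags at a position and strand already seen made up 4.15% of the menin-null mESC library and 11.3 to 11.4% of the other 3 libraries. Over exons 3 to 8 of Men1 (chromosome 19, 6336725 to 6338961) the wt inputs had 17 (mESC) and 22 (PILEC) tags, and both menin-null inputs had 0, a count that allows up to 3. The promoters of 5 mESC markers together carried 213 and 233 RPM in wt and menin-null mESCs and 11.1 and 8.99 RPM in wt and menin-null PILECs. Those of 9 islet markers together had 50.6 and 53.2 RPM in mESCs and 29 and 34.3 RPM in PILECs (wt and menin-null). The highest of them in PILECs was Isl1, with 8.2 and 10.1 RPM in wt and menin-null cells. The hormone genes among them, Ins1, Ins2, Gcg and Iapp, had at most 1.24 RPM in every library. These hormone genes thus carried little or no mark in the PILECs.

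Most promoters showed little stage dependence. Of the 15079 promoters tested, 14457 (95.9%) had a relative stage difference within 2-fold, and the middle 95% spanned -0.81 to 1.05. Menin-null cells held lower H3K4me3 than wt in PILECs at 50 promoters relative to the difference in mESCs (0.332% of those tested) and higher at 86 promoters (0.570%), which are 49 and 80 distinct promoters. Without the fold rule 532 promoters passed the adjusted p, 353 of them lower and 179 higher. With 1 tag per position and strand, 28 promoters were called lower and 40 higher, which kept 28 of the 50 and 36 of the 86. Fold alone, with no test, was met by 182 lower and 440 higher promoters.

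On the RPM scale, before the median was taken off, the whole distribution was shifted. The median log2 ratio of menin-null to wt was 0.23 in mESCs and -0.09 in PILECs, and the median stage difference was -0.33, with 12222 promoters (81.1%) below 0. The 2 mESC libraries also differed most in the share of tags near starts. When tags within 1 kb of starts were used as totals in place of all tags, the median stage difference was 0.0. That scaling sets it near 0 by construction, so this value is no separate finding. With library totals alone and no median taken off, 478 promoters were called lower and 50 higher, so the balance of the 2 directions depended on the scaling and only differences between promoters are described below.

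**Figure D1:**
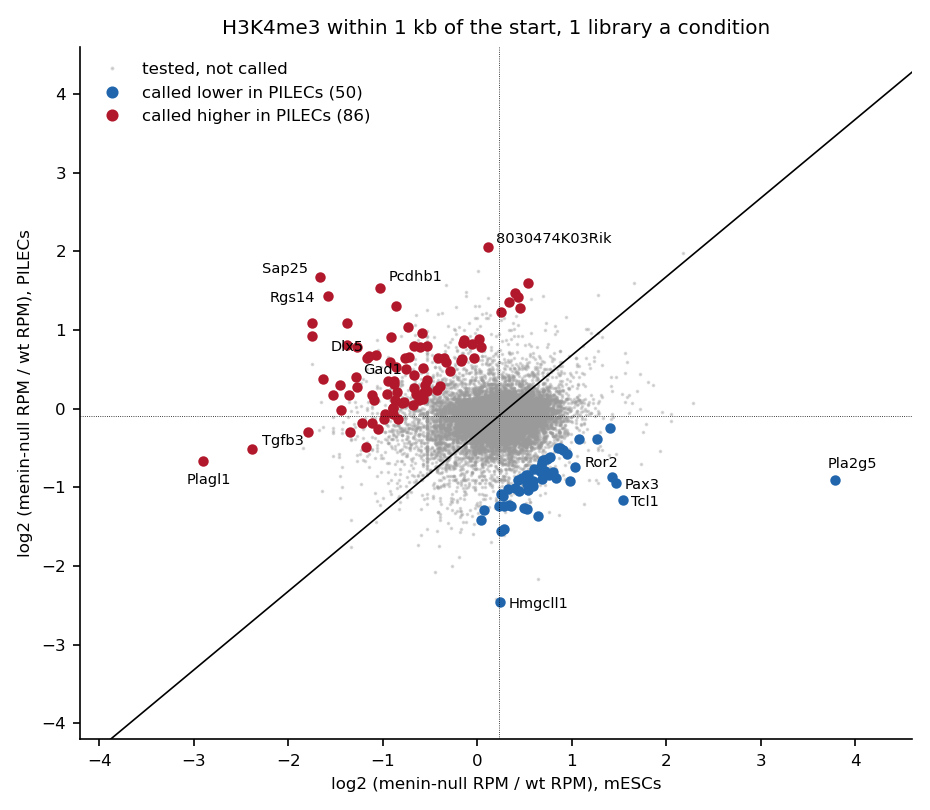
Each point is 1 of the 15079 promoters tested, with the log2 ratio of menin-null to wt RPM in mESCs on the x axis and in PILECs on the y axis. The diagonal marks the median stage difference of -0.33 and the dotted lines the median of each stage, and the 50 promoters called lower in PILECs (blue) and the 86 called higher (red) lie on either side of it, the latter mostly left of the mESC median.

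The promoters of 6 called genes are shown from 250 bases before to 50 bases after the start used here, because CpG content, described below, went with the stage difference. They were read from the mm9 genome on the strand of the gene, and capitals mark every CG. Sirt1 (chr10:62801734-62802033, minus strand) and Ror2 (chr13:53380869-53381168, minus strand) were called lower. Plagl1 (chr10:12810569-12810868, plus strand), Gad1 (chr2:70400706-70401005, plus strand), Dlx5 (chr6:6832019-6832318, minus strand) and Rgs14 (chr13:55480280-55480579, plus strand) were called higher.
Sirt1: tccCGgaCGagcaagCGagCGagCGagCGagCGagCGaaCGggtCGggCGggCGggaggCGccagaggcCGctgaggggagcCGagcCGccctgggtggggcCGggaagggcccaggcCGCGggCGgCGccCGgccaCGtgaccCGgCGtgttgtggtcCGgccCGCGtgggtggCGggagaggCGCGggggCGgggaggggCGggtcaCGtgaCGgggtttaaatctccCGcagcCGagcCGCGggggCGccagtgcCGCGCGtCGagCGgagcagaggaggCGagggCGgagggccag
Ror2: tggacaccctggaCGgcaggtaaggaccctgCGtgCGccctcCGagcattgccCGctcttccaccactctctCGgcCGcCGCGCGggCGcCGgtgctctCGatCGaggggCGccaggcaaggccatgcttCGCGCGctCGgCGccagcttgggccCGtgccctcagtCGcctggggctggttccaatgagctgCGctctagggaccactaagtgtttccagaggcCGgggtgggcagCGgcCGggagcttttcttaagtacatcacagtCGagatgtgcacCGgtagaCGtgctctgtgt
Plagl1: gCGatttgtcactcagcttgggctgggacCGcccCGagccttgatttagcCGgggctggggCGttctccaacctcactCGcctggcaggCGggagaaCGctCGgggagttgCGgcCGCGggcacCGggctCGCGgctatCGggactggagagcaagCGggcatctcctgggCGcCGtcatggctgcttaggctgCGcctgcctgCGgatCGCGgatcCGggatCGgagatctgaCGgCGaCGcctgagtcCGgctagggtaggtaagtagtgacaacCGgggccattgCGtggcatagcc
Gad1: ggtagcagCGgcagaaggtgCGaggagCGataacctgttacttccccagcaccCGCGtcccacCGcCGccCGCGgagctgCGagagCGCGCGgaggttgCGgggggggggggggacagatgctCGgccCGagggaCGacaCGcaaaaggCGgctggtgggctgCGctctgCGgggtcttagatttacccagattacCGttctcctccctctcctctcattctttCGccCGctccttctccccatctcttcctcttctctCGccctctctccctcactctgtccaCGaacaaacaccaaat
Dlx5: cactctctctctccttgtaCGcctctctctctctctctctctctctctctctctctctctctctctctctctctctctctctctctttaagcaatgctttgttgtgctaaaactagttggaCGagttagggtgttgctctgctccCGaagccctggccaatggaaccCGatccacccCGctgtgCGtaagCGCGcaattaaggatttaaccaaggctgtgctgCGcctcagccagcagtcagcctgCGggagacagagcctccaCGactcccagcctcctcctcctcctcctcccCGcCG
Rgs14: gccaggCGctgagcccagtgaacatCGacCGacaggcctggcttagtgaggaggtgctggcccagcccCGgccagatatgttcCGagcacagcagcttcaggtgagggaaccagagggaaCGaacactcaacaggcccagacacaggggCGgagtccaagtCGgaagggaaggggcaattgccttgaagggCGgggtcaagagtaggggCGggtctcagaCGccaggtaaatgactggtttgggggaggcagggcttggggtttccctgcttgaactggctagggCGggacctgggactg

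The Sirt1 stretch held 47 CG, a number reached by 4.16% of the promoters tested, against a median of 23 per 300 bases over all of them (quartiles 16 and 32). Ror2 held 29 CG, Plagl1 31 and Gad1 26, all above that median. Dlx5 held 13 and Rgs14 12, numbers reached by 83% and 85.5% of promoters.

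The promoters called lower had mESC levels near those of all promoters tested, whose medians were 29.2 RPM in wt and 33.8 in menin-null mESCs. Their median RPM was 24.1 in wt and 35.1 in menin-null mESCs, against 16.2 in wt and 9.19 in menin-null PILECs. From mESCs to PILECs, 38 of the 50 fell in RPM in the wt line and 49 of 50 in the menin-null line, where a larger fall than in wt is what the calling rule selects and is no separate finding. On the RPM scale all 50 were higher in menin-null than in wt mESCs and lower in menin-null than in wt PILECs. Relative to the median of each stage, and counting a ratio only where its 95% interval lay wholly on 1 side, 20 were high in menin-null mESCs and low in menin-null PILECs, 27 were low in menin-null PILECs with an mESC ratio not distinct from the median, and 3 were high in menin-null mESCs alone.

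Ror2, a receptor tyrosine kinase for Wnt5a, had 23.8 RPM in wt and 48.6 in menin-null mESCs, against 16.5 in wt and 9.9 in menin-null PILECs. The menin-null library was the higher one in mESCs and the lower one in PILECs. The relative stage difference was -1.43 (95% interval -1.96 to -0.91, adjusted p = 1.3e-05 by the exact conditional test). Sirt1, an NAD-dependent protein deacetylase, had 40.7, 72.2, 20.6 and 11.2 RPM in the same order, the same pattern at a higher level. This gave a relative stage difference of -1.37 (-1.8 to -0.94, adjusted p = 2e-07 by the exact test). It was 0.04 at the 5'-most annotated start of the gene, so the Sirt1 value holds for the start with the most tags and not for that one. The input within 50 kb of Sirt1 had a stage difference of -0.37, and with that input taken off its value was -1.0 and it was no longer called.

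Hmgcll1, which encodes a lyase related to HMG-CoA lyase, differed mainly in PILECs, with 9.87 and 11.7 RPM in wt and menin-null mESCs and 1.86 and 0.339 RPM in wt and menin-null PILECs. The last value stands for 6 tags, against 12 in the menin-null PILEC input in the same window. The interval of the relative stage difference of -2.36 ran from -4.07 to -0.81.

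Pax3, a paired-box transcription factor of the dorsal neural tube, neural crest and muscle precursors, gained H3K4me3 mainly in the wt line. It had 2.88 RPM in wt and 7.96 in menin-null mESCs, against 16.8 in wt and 8.77 in menin-null PILECs. On differentiation its RPM rose by 2.54 on the log2 scale in the wt line and by 0.14 in the menin-null line. The median changes over all promoters tested were -0.03 and -0.35 in the same order. The relative stage difference of Pax3 was -2.07 (-3.54 to -0.79, adjusted p = 0.022 by the exact test), with 7 tags in wt mESCs. The wt mESC input had 11 tags in the same window.

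Tcl1, a coactivator of Akt kinase expressed in stem cells, had 7.81 RPM in wt mESCs and 22.7 in menin-null mESCs, and 1.01 and 0.452 RPM in wt and menin-null PILECs. Its log2 ratio was 1.54 (0.81 to 2.35) in mESCs, above the median of that stage, and -1.16 (-2.56 to 0.10) in PILECs, an interval that spans the median of that stage. The PILEC counts of Tcl1 were 19 and 8 tags (wt and menin-null), against 14 and 19 in the inputs. Its relative stage difference of -2.37 ranged from -2.47 to -0.92 over those alternatives of processing, described below, in which it kept enough tags. Of all 19 alternatives, Tcl1 was called in 12. Pla2g5, a secreted phospholipase A2, had the lowest relative stage difference of all, at -4.37, with an interval from -7.66 to -1.81. It rested on 2 tags in wt mESCs against 40 in menin-null mESCs (0.822 and 11.4 RPM), and the PILEC libraries had 0.852 and 0.452 RPM. In wt and menin-null PILECs these were 16 and 8 tags, below the 24 and 24 tags of the PILEC inputs in the same window. The mESC inputs had 11 and 6 tags (wt and menin-null), so the wt mESC count also lay below its input. Among the other low values, Zfp532, Fam82a1, 1700113H08Rik, and Gm12523 and Gm12930, which share their promoters with Sort1 and Rspo1, had relative stage differences from -1.95 to -1.41. In each of these 5 the menin-null library had the higher RPM in mESCs and the lower in PILECs.

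The promoters called higher were weakly marked in mESCs, and most differed in both stages. Their median RPM was 15.6 in wt and 9.1 in menin-null mESCs, against 10.7 in wt and 15.2 in menin-null PILECs. Of the 86, 45 were low in menin-null mESCs and high in menin-null PILECs relative to the stage medians, 17 were low in menin-null mESCs alone, 19 were high in menin-null PILECs alone, and 5 were low in both stages but less so in PILECs. On differentiation, 58 of the 86 fell in the wt line, and 50 rose in the menin-null line, an order that the calling rule again fixes.

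**Figure D2:**
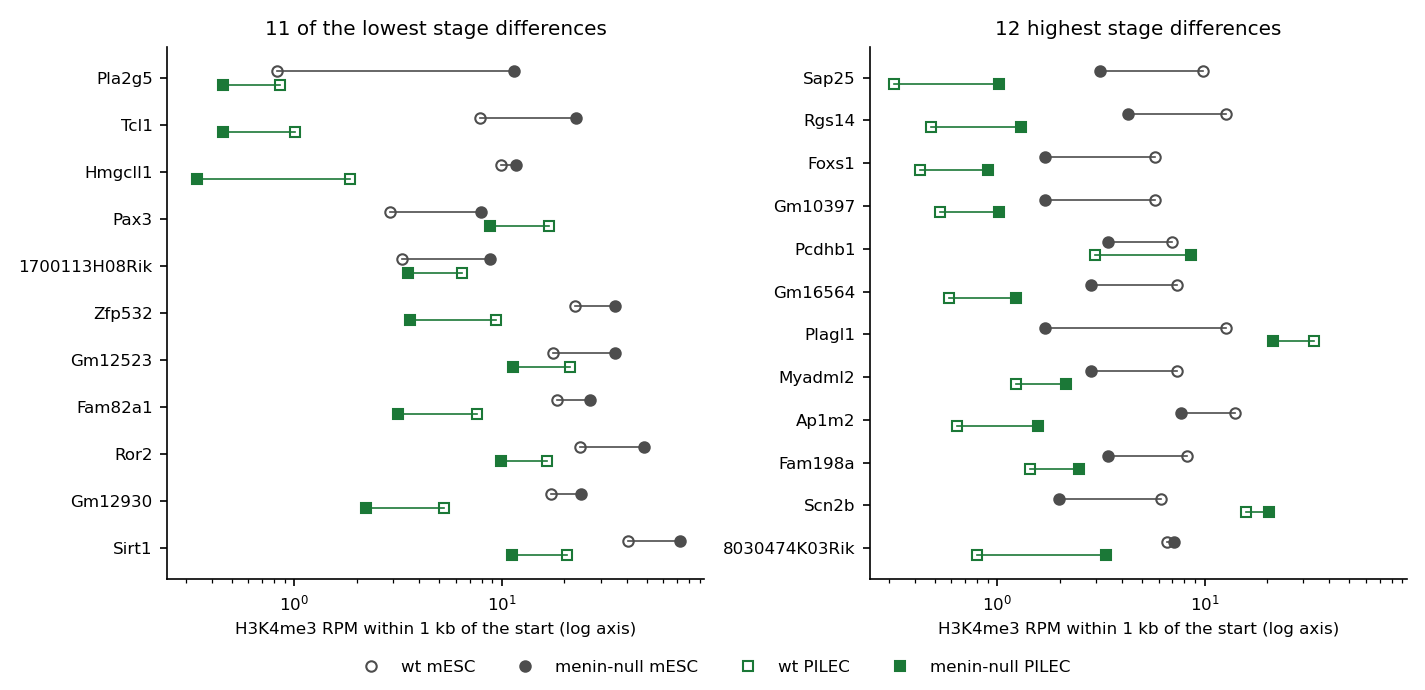
H3K4me3 within 1 kb of the start, in RPM on a log axis, in each of the 4 libraries (1 library a condition) for 11 of the 12 promoters with the lowest and for the 12 with the highest relative stage difference among those called. On the left menin-null (filled) lies above wt (open) in mESCs and below it in PILECs, and on the right mostly the reverse, while Plagl1 is lower in menin-null cells in both stages.

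Rgs14, a regulator of G protein signalling, had 12.7 RPM in wt and 4.26 in menin-null mESCs, against 0.479 in wt and 1.3 in menin-null PILECs. The 2 PILEC libraries were low and differed in the opposite sense to the mESC libraries. This gave a relative stage difference of 3.35 (1.79 to 4.96, adjusted p = 0.00068 by the exact test). Sap25, which encodes a protein of the Sin3 corepressor complex, had the highest relative stage difference, 3.66 (1.8 to 5.62), with 9.87 and 3.13 RPM in wt and menin-null mESCs and 0.32 and 1.02 RPM in wt and menin-null PILECs. Foxs1, a forkhead factor, had 5.76, 1.71, 0.426 and 0.905 RPM in the same order and a relative stage difference of 3.18 (1.1 to 5.31). In PILECs these were 9 and 23 tags (wt and menin-null) at Rgs14, 6 and 18 at Sap25 and 8 and 16 at Foxs1. The PILEC inputs, of 19016697 and 18120807 tags, had 15 and 14, 17 and 20, and 14 and 11 tags in the same windows. The wt PILEC counts thus lay below input, and these PILEC ratios are not clearly ratios of the mark. In menin-null mESCs Rgs14, Sap25 and Foxs1 had 15, 11 and 6 tags, against 10, 14 and 6 in the menin-null mESC input. The menin-null mESC counts of Sap25 and Foxs1 thus did not exceed input either.

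At Plagl1, an imprinted gene that encodes a zinc finger factor, menin-null cells had less H3K4me3 in both stages. It had 12.7 RPM in wt and 1.71 in menin-null mESCs, and 33.9 in wt and 21.4 in menin-null PILECs. The menin-null mESC value stands for 6 tags, against 8 in the menin-null mESC input in the same window. The gap narrowed with differentiation, and the relative stage difference was 2.57 (1.27 to 4.14, adjusted p = 0.0015 by the exact test). Pcdhb1, a protocadherin of the beta cluster, crossed over, with 6.99 and 3.41 RPM in wt and menin-null mESCs and 2.98 and 8.65 RPM in wt and menin-null PILECs. The relative stage difference of Pcdhb1 was 2.91 (1.65 to 4.19). At 8030474K03Rik the mESC libraries were close (6.58 and 7.11 RPM), and menin-null PILECs had 3.34 RPM against 0.799 in wt PILECs.

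Among the other high values, Ap1m2, an epithelial clathrin adaptor subunit, had 14 and 7.68 RPM in wt and menin-null mESCs and 0.639 and 1.58 RPM in wt and menin-null PILECs. Scn2b, a sodium channel beta subunit, had 6.17, 1.99, 15.8 and 20.5 RPM, so it gained the mark in both lines. Gm10397, Gm16564, Myadml2 and Fam198a completed the 12 highest, with relative stage differences of 2.39 to 3.02. In wt PILECs Ap1m2, Gm10397, Gm16564 and Myadml2 had 12, 10, 11 and 23 tags, against 14, 21, 22 and 30 in the wt PILEC input. Fam198a had 27 against 10, and Scn2b 296 against 16. In menin-null mESCs Gm10397, Gm16564, Myadml2 and Scn2b had 6, 10, 10 and 7 tags, against 5, 8, 12 and 6 in the input. Ap1m2 and Fam198a had 27 and 12 tags there, against 10 and 4. Of the 86 promoters called higher, 9 had fewer than 10 tags in at least 1 library, and of the 50 called lower, 5 had.

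Tags 1 to 3 kb from the start, which the calls did not use, were read as a further description. Of the 86 promoters called higher, 28 had enough such tags, and 25 of these 28 lay above the median of all promoters in that flank, with a median of 0.60. Of the 50 called lower, 22 had enough flank tags, and these split into 10 below and 12 above, with a median of 0.14. Within the window, the promoters called lower had a median of -1.32 in the inner 500 bp and -0.92 from 500 bp to 1 kb. Those called higher had 1.4 and 1.31.

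The stage difference went with the level of the mark in mESCs. The promoters were split into 10 classes of about equal size by mESC level. In the class with the least H3K4me3 (3.36 to 7.9 RPM, both genotypes together) the median log2 ratio of menin-null to wt was -0.08 in mESCs and -0.14 in PILECs. In the class with the most (from 66.1 RPM) it was 0.38 in mESCs and -0.06 in PILECs. The mESC ratio thus moved more than the PILEC ratio, and the median relative stage difference went from 0.21 in the lowest class to -0.12 in the highest. The lowest 3 classes held 66 of the 86 promoters called higher and 6 of the 50 called lower. The share of tags near starts, given above, differed more between the 2 mESC libraries than between the 2 PILEC libraries, and its part in this trend was not tested. Measured against the promoters nearest in mESC level in place of all promoters, 48 were called higher and 52 lower, 47 and 41 of them being among the first calls. Of the called genes named here, Foxs1, Gm10397, Scn2b, 8030474K03Rik, Gata6, Dlx5, Sox14, Fgf5, Cnpy1 and Igf2bp1 were no longer called, and of the list members Bmp4 and Wnt5b, named after their values were seen, were newly called lower.

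The stage difference also varied with the change of the mark on differentiation, though not in 1 direction. Promoters whose H3K4me3 fell between 2-fold and 4-fold from mESCs to PILECs, both genotypes together, had a median relative stage difference of -0.18, and 20 of these 1517 promoters were called lower and 9 higher. Their PILEC ratio of -0.26 was the lowest of the 8 classes of change, which were made from the same counts. Promoters that gained 2-fold to 4-fold had a median of 0.19, with 1 of 569 called lower and 10 higher. Promoters that fell more than 4-fold did not continue the order, with a median of 0.16 over 1187 promoters, 15 called lower and 17 higher. Their PILEC counts can lie near those of input, as at Sap25 and Rgs14 above. In the tenth of promoters with the least H3K4me3 in PILECs (0.549 to 3.87 RPM), 6 were called lower and 19 higher. Among the third of promoters with the most H3K4me3 in mESCs, the median was -0.34 for those that fell at least 2-fold (612 promoters, 11 called lower and 0 higher), -0.08 for those that fell less, and 0.05 for those that gained. Among the third with the least, the values were 0.18, 0.11, and 0.14 and 0.22 for gains under and over 2-fold, with no such order.

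**Figure D3:**
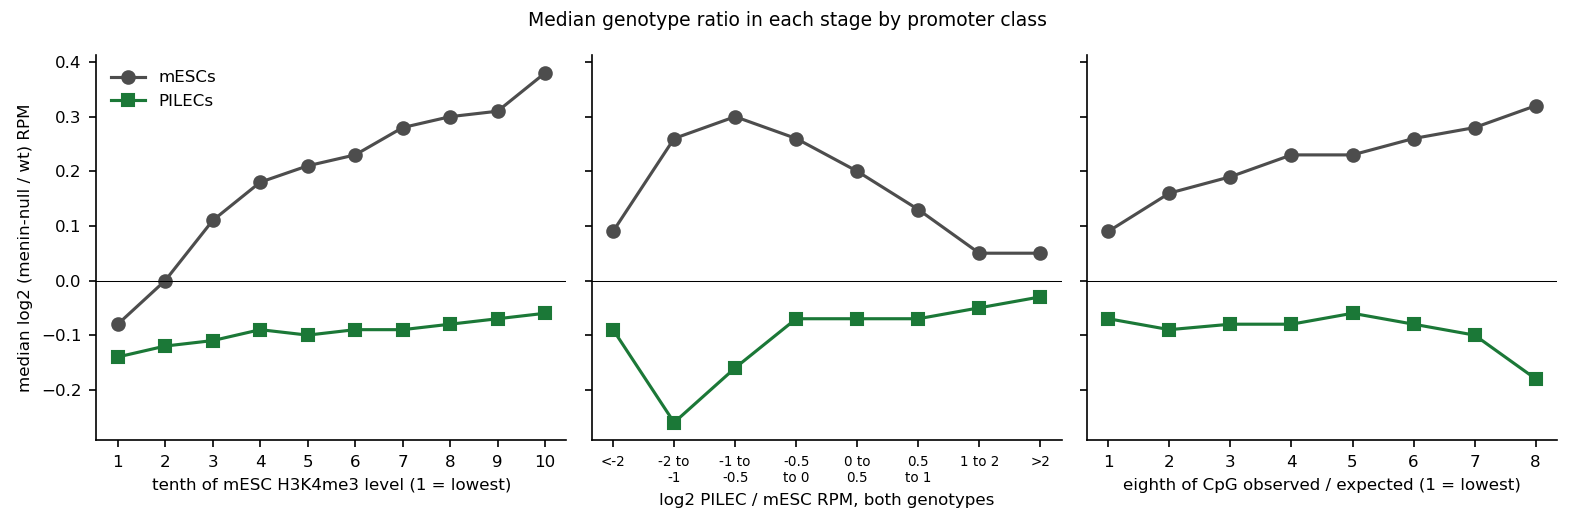
Median log2 ratio of menin-null to wt RPM in mESCs (circles) and in PILECs (squares) over promoters classed by mESC H3K4me3 level, by the change from mESCs to PILECs (both genotypes together) and by CpG observed over expected. The mESC ratio climbs from -0.08 to 0.38 with level and from 0.09 to 0.32 with CpG content, while the PILEC ratio is lowest, at -0.26, in promoters that fell 2-fold to 4-fold.

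The most CpG-rich promoters had lower stage differences than the others. CpG islands, where CG pairs are frequent and unmethylated, carry H3K4me3 in most cell types. In the eighth of promoters with the lowest ratio of observed to expected CpG within 1 kb, the median relative stage difference was 0.16, with 3 promoters called lower and 23 higher. In the highest eighth it was -0.18, with 16 called lower and 2 higher. Here the ratios moved apart in both stages, from 0.09 to 0.32 in mESCs and from -0.07 to -0.18 in PILECs. Level in mESCs rose along with CpG content, from a median of 8.57 to 59.2 RPM, and among the third of promoters with the most H3K4me3 classes of low, middle and high CpG content still had medians of -0.02, -0.06 and -0.18. Among the promoters with the least H3K4me3, the CpG classes were cut anew, at ratios of 0.434 and 0.561 in place of 0.687 and 0.796. These classes, of 1675, 1675 and 1676 promoters, had medians of 0.19, 0.15 and 0.12. Their high class held 32 of the promoters called higher and their low class 23. The median CpG ratio of this high class was 0.645, near the 0.627 of the low class among the most marked promoters. Classes of the same name thus differ in CpG content between these sets and cannot be compared directly. Against promoters of like level the highest CpG eighth had a median of -0.10, and the other 7 lay between -0.01 and 0.04, so that little of the trend remained outside the highest eighth. The input moved the other way, its stage difference over the same promoter windows being 0.20 in the lowest eighth and 0.31 in the highest.

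By distance from the start, the stage difference of summed tags was most negative just upstream over all promoters and in the CpG-richest eighth, but not in the CpG-poorest. Over all promoters tested it was -0.56 in the 100 bp upstream of the start and -0.32 at 450 bp upstream. In the CpG-richest eighth it was -0.79 just upstream of the start and -0.42 at 650 bp upstream. Just upstream of the start in that class, wt and menin-null mESCs had 2.28 and 2.96 RPM per promoter and 100 bp, and wt and menin-null PILECs had 1.44 and 1.08. In the CpG-poorest eighth it was -0.19 just upstream of the start, and the lowest value, -0.45, lay 1250 bp upstream. With tags counted within 500 bp of the start, 163 promoters were called lower and 67 higher, and 34 and 44 of them were among the calls made within 1 kb.

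**Figure D4:**
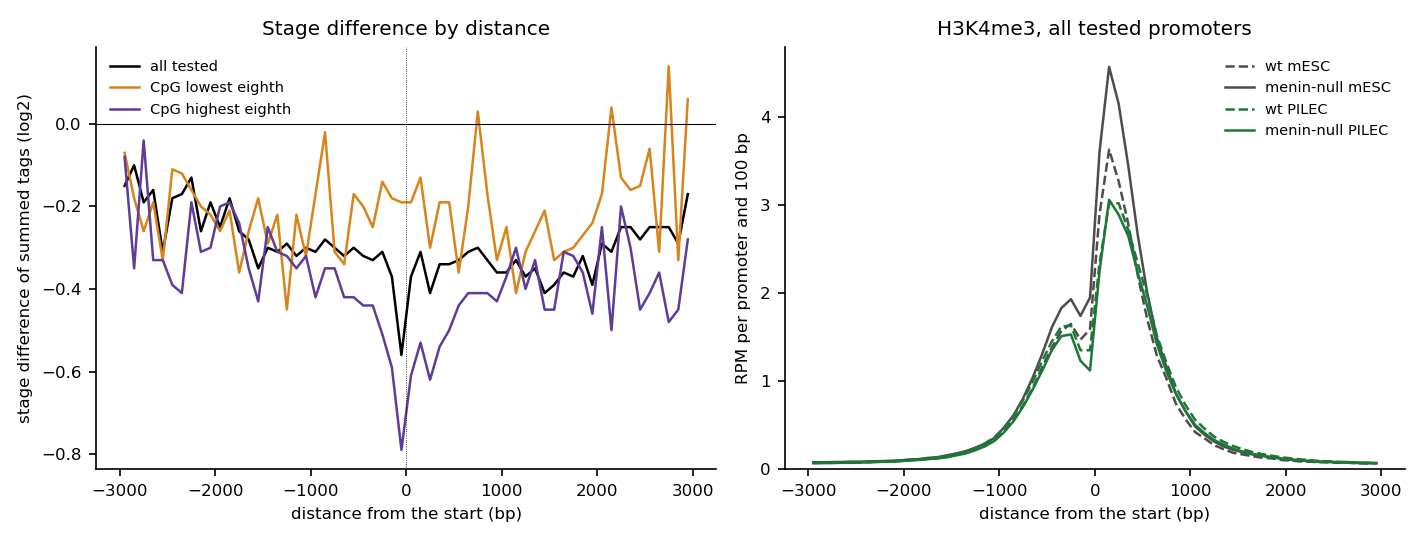
Left, the stage difference (log2) of tags summed in 100-bp steps around the start, for all promoters tested and for the eighths with the lowest and highest CpG content, with the minimum just upstream of the start (-0.56 over all, -0.79 in the CpG-richest) but not in the CpG-poorest set (-0.19 there). Right, the RPM per promoter and 100 bp in each of the 4 libraries. Menin-null mESCs lie above wt mESCs around the start, and menin-null PILECs lie below wt PILECs in nearly every step. Just upstream of the start the values were 1.59 in wt and 1.95 in menin-null mESCs, and 1.35 in wt and 1.12 in menin-null PILECs.

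Of 24 gene lists, 14 had no promoter called, and 18 had a median relative stage difference within 0.2 of that of all promoters. Muscle genes (0 of 8, median 0.58), AP-1 genes (0 of 10, median 0.30), islet hormone and secretion genes (0 of 9, median -0.06), fibroblast and matrix genes (0 of 18, median 0.01), caudal and early mesoderm regulators (0 of 12, median 0.03) and lamin, housekeeping and cytoskeleton genes (0 of 20, median -0.05) had none. The lists with no call also included those of the H3K4 methyltransferase complexes (0 of 18 tested, median -0.13), Polycomb genes (0 of 27, median -0.02), CDK inhibitors (0 of 7, median 0.14), the Hedgehog pathway (0 of 14, median -0.17), replication-dependent histone genes (0 of 60, median 0.01) and cytosolic ribosomal protein genes (0 of 81, median 0.10). These counts stand against the background of 0.332% lower and 0.570% higher over all promoters, and a list of this size would hold few calls at that rate. Cdkn1b, a CDK inhibitor gene, had 50.2, 52.6, 55.6 and 57.3 RPM in wt mESCs, menin-null mESCs, wt PILECs and menin-null PILECs. Cdkn2c, another, had 18.9, 27.9, 22.6 and 25.8 RPM. Neither was called, with relative stage differences of 0.31 (-0.06 to 0.67) and -0.03 (-0.60 to 0.53). Men1 itself had 26.3, 39, 46.2 and 44.3 RPM at its start, upstream of exons 3 to 8, and a relative stage difference of -0.29 (-0.77 to 0.17).

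Islet transcription factor genes leaned to higher values with no call. Of 16 tested, 12 lay above 0 with a median of 0.34, which was 0.19 against promoters of like level. Pdx1, a master regulator of pancreas development, had 7.4 and 4.26 RPM in wt and menin-null mESCs and 1.07 and 1.36 RPM in wt and menin-null PILECs. Its relative stage difference of 1.48 (0.04 to 2.93) did not pass (adjusted p = 0.3 by the exact test). Neurod1, a helix-loop-helix factor of endocrine and neural cells, had 6.99, 2.84, 7.24 and 5.54 RPM and a relative stage difference of 1.25 (-0.04 to 2.6). Ins1, Ins2, Gcg and Iapp had too few tags to be tested.

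Of 11 definitive endoderm and gut genes tested, 1 (9.09%, against 0.570% of all promoters) was called higher and 9 lay above 0, with a median of 0.72, which was 0.56 against promoters of like level. Gata6, an endoderm transcription factor, had 13.6 RPM in wt and 7.39 in menin-null mESCs, against 7.94 in wt and 10.1 in menin-null PILECs, the order of the genotypes being opposite in the 2 stages. Its relative stage difference was 1.56 (0.7 to 2.43, adjusted p = 0.013 by the exact test), and it was 1.32 and not called against promoters of like level. Gata4, a relative of Gata6, had 8.22, 11.1, 4.1 and 8.54 RPM and a relative stage difference of 0.96 (0.00 to 1.88, adjusted p = 0.32 by the exact test). Sox17, another endoderm factor, had 3.7, 2.27, 1.38 and 1.24 RPM and was not tested. The promoters of 5 endoderm and liver markers together had 20.6 and 20.5 RPM in wt and menin-null mESCs and 11.5 and 19.5 RPM in wt and menin-null PILECs, with Afp and Alb below 0.6 RPM in every library. The part of unlike cell mixtures in the PILEC ratio was not tested.

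Of 21 pluripotency factor genes tested, Tcl1 alone was called, lower (4.76%, against 0.332% of all promoters), and the median was 0.01. Pou5f1, the core stem cell factor Oct4, fell from 61.3 to 3.25 RPM in the wt line and from 77.9 to 2.26 RPM in the menin-null line. Its relative stage difference was -0.53 (-1.22 to 0.14, adjusted p = 0.5 by the exact test). Nanog, another, had 39.9, 35.5, 2.93 and 1.53 RPM and a relative stage difference of -0.44 (-1.27 to 0.37).

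Developmental regulators other than Hox genes held 1 promoter called lower and several called higher, to be read against 0.332% lower and 0.570% higher over all promoters. Of 106 non-Hox homeobox and Pax genes tested, Pax3 (0.943%) was called lower and Dlx1, Dlx2 and Dlx5 (2.83%) higher, with a median of 0.08. Of 38 forkhead genes, Foxs1 (2.63%) was called higher, with a median of 0.11. Of 32 Sox, T-box and Gata genes, Gata6 and Sox14 (6.25%) were called higher, with a median of 0.14. Against promoters of like level, none of these 3 genes of the forkhead and the Sox, T-box and Gata lists was called. Of 35 Wnt and Fgf ligand genes, Fgf5 and Fgf9 (5.71%) were called higher, with a median of 0.03. Against promoters of like level Fgf5 was not called and Wnt5b was called lower (-0.97 to all promoters and -1.04 to those of like level). Fgf9 had 19.7 and 10.8 RPM in wt and menin-null mESCs and 23.1 and 25 RPM in wt and menin-null PILECs, so the gap seen in mESCs was smaller in PILECs. Of 11 genes of TALE class Hox cofactors none was called, and 10 lay below 0 with a median of -0.24. Meis1, one of them, went from 8.63 to 56.1 RPM in the wt line and from 10.2 to 52.4 RPM in the menin-null line, with a relative stage difference of -0.01 (-0.87 to 0.82). Otx2, a homeobox gene of the anterior brain, had 8.63, 5.69, 18 and 13 RPM and was not called.

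Of 29 Smad and Nodal signalling genes, Tgfb3 (3.45%), which lies in a segment of chromosome 12 with reduced input described below, was called higher, with a median of -0.17. Bmp4, also on the list of genes higher in menin-null mESCs, had -1.84 and was not called (adjusted p = 0.063 by the exact test), but it was called lower, at -1.99, against promoters of like level. Of 3 clustered protocadherins tested Pcdhb1 (33.3%) was called higher, with a median of 0.48. Both shares stand against 0.570% of all promoters.

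The excluded loci are given for comparison. The 4 genes tested in the Dlk1-Meg3 locus had relative stage differences of 0.71 to 4.01, with a median of 0.81, and Mest had 3.61. The Dlk1-Meg3 locus lies in the segment of chromosome 12 from 107.4 to 112.8 Mb with reduced menin-null mESC input, described below. The input stage difference of that segment was 0.76, and its part in the values of this locus was not tested. In the widened Hox loci 40 annotated genes, Hox genes and others, had enough tags. Of these 40, 14 had relative stage differences of -1 or lower and 0 had 1 or higher. Their median was -0.57 and the lowest value -4.12. The medians were -0.62 in HoxA, -1.42 in HoxB and -0.71 in HoxD, but 0.16 over the 9 genes of HoxC, of which 1 was at -1 or lower. Outside all these loci the lowest value was -4.37 at Pla2g5 and the highest 3.66 at Sap25, and none of the lists had a median as low as -0.57.

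Of 29 imprinted genes outside the Dlk1-Meg3 and Mest loci, Plagl1 was called higher and Slc38a4 lower (3.45% each, against 0.570% and 0.332% of all promoters), with a median of 0.03. Slc38a4, an amino acid transporter gene, had 24.3 and 28.4 RPM in wt and menin-null mESCs and 12.7 and 5.43 RPM in wt and menin-null PILECs. Its relative stage difference was -1.12 (-1.73 to -0.52), with wt PILECs below both mESC libraries and menin-null PILECs lower still. Nnat, which encodes a neuronal proteolipid, was lower in menin-null cells in both stages, with 8.22, 4.26, 24.3 and 12.6 RPM, and its relative stage difference was 0.33 (-0.74 to 1.43). H19, a maternally expressed noncoding RNA gene, had 5 and 4 tags in the mESC libraries and was not tested.

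The study listed genes that differed in expression between the genotypes in mESCs and in PILECs, chosen on cultures of these same cells, so the lists are not independent evidence of a direction. Of 56 genes listed as lower in menin-null PILECs and tested here, 6 (10.7%) were called lower and 0 higher, against 0.332% and 0.570% of all promoters. Pax3, Slc38a4, Cnpy1, Ptpmt1 and Igf2bp1 were among them. The median relative stage difference of the 56 was -0.31, and -0.51 against promoters of like level. Their median ratio, taken separately in each stage and relative to its median, was -0.02 in mESCs and -0.46 in PILECs. Of 26 genes listed as higher in menin-null PILECs, 0 were called lower and 2 (7.69%) higher, Tmem130 among them, and the median was 0.47, or 0.26 against promoters of like level. Their median ratios were -0.11 in mESCs and 0.39 in PILECs.

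Of 28 listed as lower in menin-null mESCs, Plagl1 and Cldn6 (7.14%, against 0.570% of all promoters) were called higher. The median was 0.34, or 0.20 against promoters of like level. Their median ratios were -0.40 in mESCs and -0.19 in PILECs. Cldn6, a tight junction gene of early epithelium, had 10.7 and 5.69 RPM in wt and menin-null mESCs and 1.6 and 3 RPM in wt and menin-null PILECs. Its relative stage difference of 2.15 ranged from 0.95 to 2.56 over the alternatives of processing, and it was called in 17 of 19. Of 8 listed as higher in menin-null mESCs, Tcl1 (12.5%, against 0.332% of all promoters) was called lower, and the median was -0.20.

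Several promoters called higher belong to genes of GABA neurons. A list of such genes was drawn up after these calls had been seen and contains them, so its counts are a description and support nothing. GABA is the main inhibitory transmitter of the forebrain, and Dlx factors specify the neurons that make it. Of 16 such genes tested, 4 (25%) were called higher, against 0.570% of all promoters, and 13 lay above 0. Their median ratio relative to the stage was -0.16 in mESCs and 0.58 in PILECs, each taken separately over the list. Gad1, which encodes the enzyme that makes GABA, had 16.4 RPM in wt and 9.95 in menin-null mESCs, against 21 in wt and 33.1 in menin-null PILECs. For Gad1 the relative stage difference was 1.72 (1.0 to 2.44, adjusted p = 0.00047 by the exact test). The menin-null library was lower than wt in mESCs and higher in PILECs.

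Dlx1 had 27.5 and 27.9 RPM in wt and menin-null mESCs and 11.6 and 21.5 RPM in wt and menin-null PILECs, so that the 2 PILEC libraries differed and the 2 mESC libraries were close. Dlx2, its neighbour on chromosome 2, had 27.1, 24.2, 13.8 and 21 RPM, and Dlx5 had 6.58, 3.13, 10.1 and 16.2 RPM. Their relative stage differences were 1.21, 1.11 and 2.08. Of the genes not called, Slc32a1, the vesicular GABA transporter, had 1.16 (0.26 to 2.03), Gad2, a second GABA-making enzyme, 0.39 (-0.52 to 1.26) and Dlx6 0.40 (-0.44 to 1.21). The lowest were Sst at -0.95, Lhx8 at -0.33 and Gsx2 at -0.01. Against promoters of like level the 4 called ones became 3, without Dlx5, and the median of the list went from 0.50 to 0.31. The promoters of 4 neural and glial markers together had 75.4 and 75 RPM in wt and menin-null PILECs, with Gfap the lowest at 0.639 and 1.53 RPM. Of 26 neural and glial genes tested Pax3 alone was called, lower (3.85%, against 0.332% of all promoters), with a median of -0.13. The part of unlike cell mixtures was not tested.

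The stage difference also went with DNA content as the inputs showed it. On chromosome 8 the median relative stage difference of 814 promoters was -0.17, and the input had a stage difference of -0.17 relative to the median autosome. On chromosome 1 the values were 0.13 over 845 promoters and 0.11 in the input. The promoter medians and input values of the other autosomes stayed within 0.06 of 0, but windows of 10 Mb within them did not. On chromosome 10 the windows from 50 to 60 Mb and from 60 to 70 Mb had menin-null to wt input ratios of 0.22 and 0.26 in mESCs, input stage differences of -0.19 and -0.22 and promoter medians of -0.21 and -0.31. Of their 39 and 61 promoters tested 1 and 2 were called lower, against 0.332% of all promoters, and Sirt1 lies in the second window. On chromosome 6 the 3 windows from 110 to 140 Mb had input stage differences of 0.12 to 0.19 and promoter medians of 0.21 to 0.26. In these windows 1 of 80, 2 of 88 and 0 of 29 promoters tested were called higher, against 0.570% of all promoters. On chromosome 1 the shift lay from 120 to 200 Mb, with input stage differences of 0.15 to 0.24 and promoter medians of 0.09 to 0.23. The 5 promoters called higher there were 4 of 63 tested from 170 to 180 Mb and 1 of 68 from 180 to 190 Mb, also against 0.570%. The other windows of this stretch, with 13 to 86 promoters tested in each, had none called. Over the 19 autosomes, which share libraries, Pearson's r was 0.93 and Spearman's rho 0.59 as a description, and without chromosome 8 they were 0.86 and 0.51. Over the 264 windows of 10 Mb Pearson's r was 0.47. Some windows did not follow, such as 90 to 100 Mb on chromosome 2 (0.19 in the input and -0.05 at promoters) and 120 to 130 Mb on chromosome 14 (0.17 and 0.05). These shifts arose in mESCs, where menin-null input relative to wt was 0.20 on chromosome 8 and -0.11 on chromosome 1, while in PILECs it was 0.03 and 0.00.

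**Figure D5:**
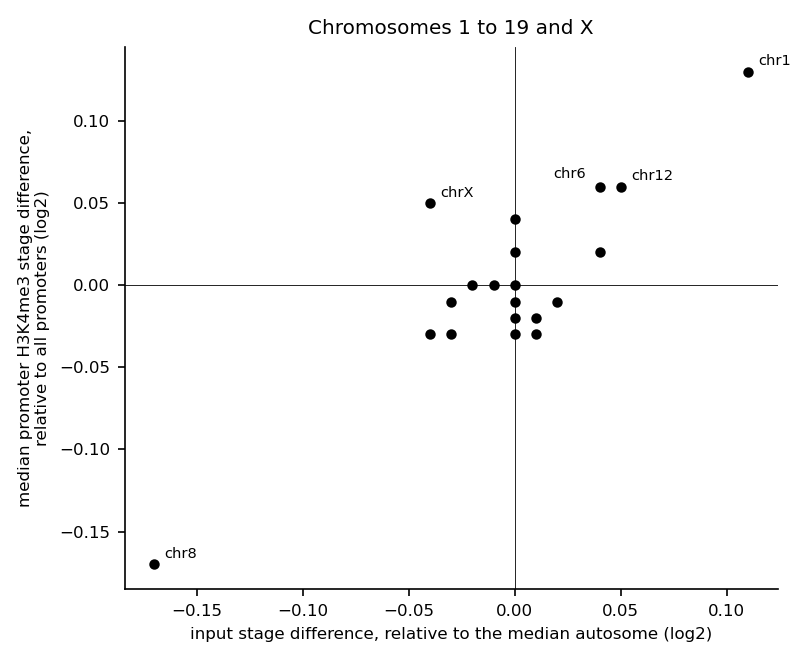
Each point is 1 chromosome, with the stage difference of its input tags relative to the median autosome on the x axis and the median relative stage difference of H3K4me3 at its promoters on the y axis, both log2. Chromosome 8 lies at -0.17 on both axes and chromosome 1 at 0.11 and 0.13, and the others lie near 0.

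Within chromosomes, 2 segments of chromosome 12 had fewer input tags in menin-null than in wt mESCs. From 85.8 to 87.6 Mb the log2 input ratio was -0.90 (95% interval -0.98 to -0.83), and from 107.4 to 112.8 Mb it was -0.95 (-0.99 to -0.91). The input stage differences there were 0.69 and 0.76, and the median relative stage differences of their 27 and 34 promoters tested were 0.83 and 0.65. Of these 61 promoters 7 (11.5%, against 0.570% of all) were called higher, Tgfb3, Acyp1, Fam164c, 1700020O03Rik, Begain, Slc25a29 and Hsp90aa1, so that these 7 of the 86 lie where the input moved the same way. Tgfb3, a ligand of the TGF-beta family, had 11.9 and 2.27 RPM in wt and menin-null mESCs and 11.3 and 7.97 RPM in wt and menin-null PILECs. The value relative to all promoters was 2.22 (1.0 to 3.6), beside an input stage difference of 0.42 within 50 kb. Without these segments and chromosome 8, 49 promoters were called lower and 72 higher.

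The spread of the stage difference was larger than counting error. Over promoters with 400 or more tags in mESCs the robust SD was 0.248, against 0.156 from counting alone, and over those with fewer than 50 tags it was 0.749 against a median of 0.618. The rest of the spread could not be split into biological and technical parts with 1 library a condition.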

How the data were processed

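The 8 libraries (4 of H3K4me3 and their 4 inputs, 1 library a condition) were analysed as deposited. Per the labels and the study's methods, the authors sonicated chromatin to about 250 bp, aligned reads of 36 bp to mm9 and kept those placed uniquely with up to 2 mismatches. The aligner was not given in the sources used here. The deposited files list 1 tag per line, with an alignment score that was not used, and carry no normalization. Between 1.04% and 1.81% of tags listed more than 2 mismatches and were kept.

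Each tag was placed at the centre of a fragment of 250 bp and counted within 1 kb of the start with the most tags (RPM summed over the 4 H3K4me3 libraries) of each of 26212 protein-coding, lincRNA and processed-transcript genes of an mm9 annotation. A count of 0 was set to 3 tags in ratios. Genes of the Dlk1-Meg3, Mest and Hox loci, each widened by 10 kb, were left out. The 4 counts of a promoter were tested by Fisher's exact conditional test (noncentral hypergeometric, two-sided) against the median stage difference, with exact 95% intervals and Benjamini-Hochberg adjustment over 15079 genes, and the test was tried on simulated counts first. Totals of 2432377 to 18773635 tags set the precision. Tags at repeated positions were kept. Any of them that are PCR copies are not independent counts, so the intervals cover at most counting error and can be too narrow. Python 3.11.15, numpy 2.4.6, pandas 2.3.3, scipy 1.17.1, biopython and matplotlib 3.10.9 were used.

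Members, lists and comparisons were chosen with earlier results of these data known. Named were the 12 called promoters with the lowest and the 12 with the highest values (1 gene for each shared promoter), up to 4 called members of each list and direction, and a fixed set of 18 genes. The GABA neuron list, the tags with at most 2 mismatches, the centring on promoters of like level and the subtraction of background were chosen after seeing the data, and Acyp1, Fam164c, 1700020O03Rik, Begain, Slc25a29, Hsp90aa1, Ptpmt1 and Igf2bp1 were named after their values were seen. Other alternatives changed scaling, duplicates, window, tag position, minimum tags, input, depth, start, zero counts, fold and test. Some items the rule names are not reported here. The study's expression lists were used as gene names alone.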

Additional observations from a re-analysis of the deposited data

Results flagged for a closer look

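Large differences between the stages, each past the adjusted p of the exact conditional test, were these relative stage differences (log2, 1 library a condition). Below 0 they were -4.37 at Pla2g5, -2.37 at Tcl1, -2.36 at Hmgcll1, -2.07 at Pax3, -1.95 at 1700113H08Rik, -1.67 at Zfp532, -1.57 at Gm12523, -1.46 at Fam82a1, -1.43 at Ror2, -1.41 at Gm12930 and -1.37 at Sirt1. Above 0 they were 3.66 at Sap25, 3.35 at Rgs14, 3.18 at Foxs1, 3.02 at Gm10397, 2.91 at Pcdhb1, 2.8 at Gm16564, 2.57 at Plagl1, 2.53 at Myadml2, 2.51 at Ap1m2, 2.39 at Fam198a, 2.34 at Scn2b and 2.29 at 8030474K03Rik.

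The input, outside the H3K4me3 measurement, had a stage difference of 0.69 in the segment of chromosome 12 from 85.8 Mb and of 0.76 in the segment from 107.4 Mb. On chromosome 8 the segment from 106.8 to 107.8 Mb had a menin-null to wt input ratio of 0.59 (95% interval 0.52 to 0.67) in mESCs and an input stage difference of -0.09, so the PILEC inputs differed there by nearly as much.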

How the results depend on the processing

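Against 50 promoters called lower and 86 higher, the counts were 478 and 50 with library totals alone, 28 and 40 with 1 tag per position and strand, 79 and 132 with the input within 50 kb taken off, 27 and 10 with libraries thinned to the smallest (8 and 5 of them among the 50 and 86), 297 and 159 at 1.5-fold, 6 and 36 at 3-fold, and 182 and 440 by fold alone. Within 500 bp 163 were lower, and against promoters of like H3K4me3 48 were higher. With a background estimated from the input subtracted, 70 were lower and 100 higher, 46 and 79 of them among the 50 and 86. Thinning and fewer tags lower the power by construction, and taking off the input adds its counting error, which the test does not hold. The other causes were not tested. The median stage difference of -0.33 was 0.0 with totals of tags near starts, which set it near 0 by construction. It was -0.36 within 500 bp, -0.32 within 2 kb, -0.35 with at least 40 tags and -0.30 with at least 5 tags. Without chromosome 8 and the segments of chromosome 12 it was -0.33. Of 520 values of 36 named called genes under alternatives, 437 stayed called in the same direction, 82 no longer passed and 1 reversed (Sirt1 at the 5'-most start, 0.04). These values leave out the alternatives chosen after seeing the data. Those were at most 2 mismatches, promoters of like level and background subtracted, which the counts out of 19 include. Called under each alternative other than 3-fold in which they had enough tags were Pla2g5, Ror2, Zdhhc18 and Mpp6 (lower) and Rgs14, Pcdhb1 and Gm9590 (higher). Of 19 alternatives, Pla2g5 was called in 15 and Rgs14 in 14, since too few tags left them untested in others, and Ror2 and Pcdhb1 in 18. At Pla2g5 and Rgs14 the wt PILEC count lay below that of its input, as given above, and at Pla2g5 the wt mESC count did too. Zdhhc18, Mpp6 and Gm9590 were named after their values were seen. Against promoters of like H3K4me3 the list medians moved to -0.09 for caudal and early mesoderm regulators, -0.12 for histone genes and 0.19 for ribosomal protein genes, and also turned sign for non-Hox homeobox and Pax genes (0.08 to -0.05), Wnt and Fgf ligands (0.03 to -0.12), imprinted genes (0.03 to -0.01), Polycomb genes (-0.02 to 0.01) and lamin, housekeeping and cytoskeleton genes (-0.05 to 0.02). Those of islet hormone and secretion genes went from -0.06 to -0.22.

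No paired analysis was possible because each condition had 1 library, and for the same reason no replicate could be left out. The mESC depth limits what can be seen, with a median of 72 mESC tags at promoters called higher and 186 at those called lower.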
